A study of Mus musculus with 4 samples.

Results

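The 10 genes described here are mouse host genes of small nucleolar RNAs (snoRNAs) that code for no known protein: Gas5, Snhg1, Snhg3, Snhg5, Snhg6, Snhg8, Snhg12, Snhg15, Snhg20 and Zfas1. The rule that picks them is a list of names and uses no measured value, although the list was drawn up with earlier results of these data known. Of the 10, 9 were found among the 21523 gene rows of the expression table; Snhg3 was not analysed here. All 9 passed the filter on low values (a mean of at least 1 FPKM, fragments per kilobase of exon, scaled to library depth) and so belonged to the 11120 genes tested. The cells were RAW264.7, a mouse macrophage cell line grown in DMEM with serum, so each value comes from 1 established line. A control group of 2 libraries with no treatment was compared with a group of 2 libraries from cells given 0.5 mM 1,5-anhydroglucitol (1,5-AG), a polyol close in structure to glucose, for 24 h. The culture time of the controls is not stated in the labels. Whether the 2 libraries of a group came from separate cultures is not stated in the labels, so the spread behind each p-value is that between these libraries and could be technical alone.

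A snoRNA host gene is transcribed and spliced like a messenger RNA, and its snoRNAs are cut from the introns while the joined exons leave as a second product. SnoRNAs with C and D boxes guide methylation of ribosomal RNA, those with H and ACA boxes guide its pseudouridylation, and scaRNAs do similar work on spliceosomal RNAs in Cajal bodies. Many host transcripts begin with a 5′ terminal oligopyrimidine tract (5′TOP), the feature that ties ribosomal protein messages to growth signals. Their short reading frames end in stop codons that count as premature, so the spliced RNAs are known substrates of nonsense-mediated decay. They build up when translation is blocked, as is well known for Gas5. The comparison asks what the polyol does to the transcriptome of a macrophage line, and here to the RNAs of these hosts.

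The hosts fell into a pair of classes by the snoRNAs annotated inside them on the same strand. There were 32 snoRNA or scaRNA loci in the 10 genes. A box C (TGATGA in the first 25 bases) with a box D (CTGA in the last 15) was found in 20 loci, the letters ACA exactly 3 bases before the 3′ end in 7, and neither in 5. Across all 1558 annotated mouse snoRNAs and scaRNAs, 20% held the first pair and 19.1% the second. Gas5 carried 9 loci, Snhg1 8, Zfas1 3, Snhg5 2 and Snhg6 1, and no ACA end was found in these 5 hosts. Snhg8 and Snhg15 carried 1 each with an ACA end, Snhg3 2, and Snhg20 1 scaRNA with an ACA end. Snhg12 was mixed, with 2 ACA ends, 1 pair of C and D boxes and 1 locus without either.

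**Figure D1:**
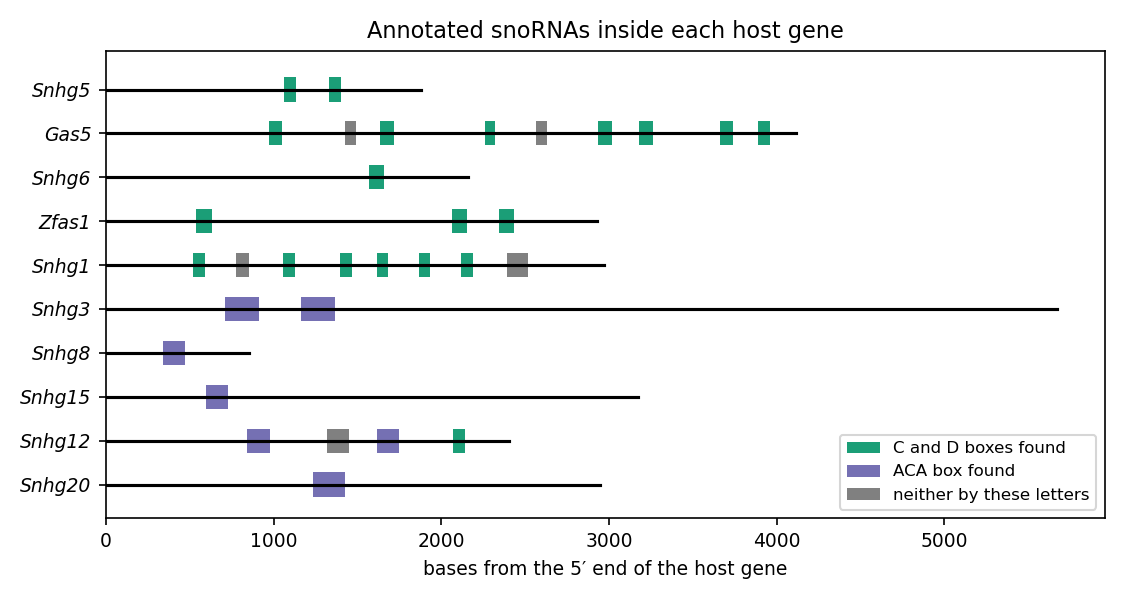
Annotated snoRNAs along each host gene. The x axis gives bases from the 5′ end of the gene, black lines the gene's length and coloured boxes the snoRNA or scaRNA models by the boxes found in them. Gas5 and Snhg1 carry the longest rows, 9 and 8 loci, while Snhg6, Snhg8, Snhg15 and Snhg20 carry 1 each.

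The sequences of 4 guides show what these hosts carry. Snord50a (chr9:88521529-88521600) and Snord50b (chr9:88521797-88521868) are the pair inside Snhg5, the host with the smallest p in the comparison, and they were identical at 71 of 72 positions. Snord87 (chr1:9942463-9942549) lies inside Snhg6, and Snora24 (chr3:123507937-123508066) inside Snhg8 stands for the ACA class. All 4 are on the minus strand of GRCm38 (the assembly of mm10), were read 5′ to 3′ from the GENCODE M21 transcripts, and have their boxes in capitals.
Snord50a: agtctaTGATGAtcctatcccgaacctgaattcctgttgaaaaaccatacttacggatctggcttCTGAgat
Snord50b: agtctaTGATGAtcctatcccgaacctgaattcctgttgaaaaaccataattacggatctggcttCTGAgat
Snord87: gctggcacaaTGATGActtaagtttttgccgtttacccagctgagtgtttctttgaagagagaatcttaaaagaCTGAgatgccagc
Snora24: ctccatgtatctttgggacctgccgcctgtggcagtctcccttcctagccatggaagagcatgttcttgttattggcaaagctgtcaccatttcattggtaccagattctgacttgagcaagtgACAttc

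The start sites of the hosts were read from RefSeq (GRCm38.p6), which had an entry for 9 of the 10 genes and a pair of entries for Gas5; Snhg6 had none. The letters TATA, which read alike on both strands, were searched from position -40 to -20, and a 5′TOP-like run (a C followed by at least 4 pyrimidines, on the gene's strand) from -10 to 10, windows that do not overlap. TATA was found in 5 of the 9 hosts (Gas5, Snhg1, Snhg5, Snhg8 and Snhg12) against 5.81% of 32851 promoter entries. The pyrimidine run was found in 5 hosts (Gas5, Snhg3, Snhg5, Snhg8 and Snhg12) against 29.7% of entries, and both together in 4 hosts against 1.8% of entries. In Gas5 both lie at the second start, and the window of the first holds neither. Counted by entry, as the shares over all promoters are, 5 of the 10 host entries held TATA, 5 the pyrimidine run and 4 both. The windows below run from 45 bases before the start to 30 bases from it on, with both motifs in capitals. They show 4 hosts that have both and Zfas1, whose window has neither. They are Snhg5 (chr9:88522868-88522942, minus strand), Gas5 at its second start (chr1:161035121-161035195, plus), Snhg8 (chr3:123508307-123508381, minus), Snhg12 (chr4:132308633-132308707, plus) and Zfas1 (chr2:167062889-167062963, plus).
Snhg5: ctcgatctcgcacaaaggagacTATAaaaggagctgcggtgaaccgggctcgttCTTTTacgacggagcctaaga
Gas5: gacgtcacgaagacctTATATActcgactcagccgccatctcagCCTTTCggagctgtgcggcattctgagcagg
Snhg8: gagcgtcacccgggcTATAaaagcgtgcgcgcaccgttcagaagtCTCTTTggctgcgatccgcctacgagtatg
Snhg12: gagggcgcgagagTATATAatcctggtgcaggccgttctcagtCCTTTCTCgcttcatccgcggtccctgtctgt
Zfas1: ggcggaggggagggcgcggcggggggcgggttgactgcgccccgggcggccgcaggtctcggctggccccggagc

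None of the 9 hosts passed the test with 1,5-AG, and their differences were small. By limma on log2(FPKM + 1) with Benjamini-Hochberg adjustment over all tested genes, 0 of 9 reached an adjusted p of 0.05, where 1.46% of tested genes did (0.809% higher, 0.647% lower). At an unadjusted p of 0.05, 3 of 9 passed (Snhg5, Zfas1 and Snhg6, all higher with 1,5-AG) against 18.2% of tested genes in either direction and 9.15% with a higher value. Limma's voom on fragment numbers recovered from the table called 1 of 9, Snhg5, against 8.29% of tested genes in either direction, 3.65% higher and 4.64% lower. The same fit by limma on genes with a mean of at least 5 FPKM also called 1 of 9, again Snhg5, against 4.8% of those genes in either direction, 2.44% higher and 2.36% lower. Of the 9 log2 differences 7 were above 0, against 49.1% of tested genes, and their median was 0.09, against -0.0025 over all tested genes. In 4 hosts (Snhg1, Snhg5, Snhg6 and Zfas1) both 1,5-AG libraries lay above both controls, which held for 24.2% of tested genes; in 0 hosts did both lie below, against 25.4%. The 4 hosts carry C and D box snoRNAs, as do Gas5 and the mixed host Snhg12, which had negative differences (-0.05 and -0.02). No difference between the classes was tested.

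**Figure D2:**
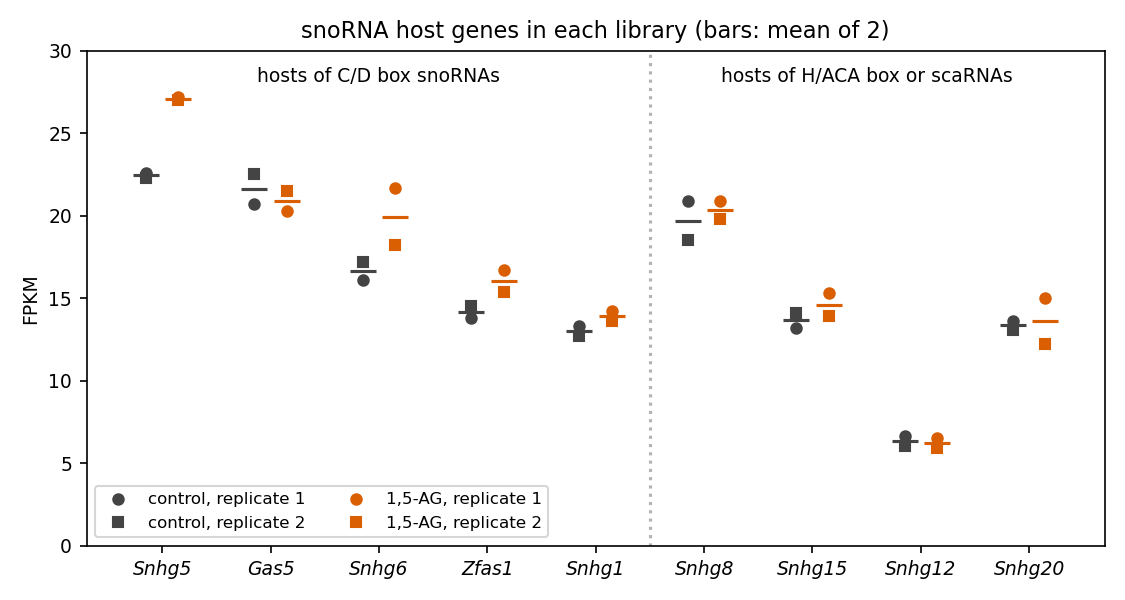
FPKM of 9 snoRNA host genes in each library. Points are single libraries (circle, replicate 1; square, replicate 2), bars the mean of 2, grey the control and orange 1,5-AG. Both 1,5-AG points stand above both control points for Snhg5, Snhg6, Zfas1 and Snhg1, and the groups overlap for the other 5.

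Among the hosts of C and D box snoRNAs, Snhg5 showed the tightest separation. Snhg5 (ENSMUSG00000097195, chr9:88521050-88522929) had 22.6 and 22.3 FPKM in the control libraries and 27.2 and 27.0 FPKM with 1,5-AG. The replicates of each group almost coincided, with gaps of 1.04% and 0.616% of the mean, below the counting error of 3.76% to 4.11% that 592 to 707 fragments per library give. The means were 22.4 ± 0.166 and 27.1 ± 0.118 FPKM (SD, n = 2 per group throughout), a ratio of 1.21. The log2 difference was 0.26 (SE 0.04, 95% interval 0.16 to 0.37), with a limma adjusted p of 0.0598, just outside the threshold. Since the replicate gaps lie below the counting error, this limma interval may be too narrow. With voom the difference of Snhg5 was 0.27, with a larger SE of 0.07 and an adjusted p of 0.0237. With limma on the 7500 genes with a mean of at least 5 FPKM the adjusted p was 0.0328. Leaving out 1 library gave adjusted p from 0.173 to 0.241 at nearly the same difference.

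Snhg6 had almost as large a mean difference, with far more spread. Snhg6 (ENSMUSG00000098234, chr1:9941959-9944118) had 16.1 and 17.2 FPKM in control and 21.7 and 18.2 FPKM with 1,5-AG. Its groups did not overlap, yet the 1,5-AG libraries lay 17.8% of their mean apart, more than the distance from the lower of them to the controls. The log2 difference was 0.24 (SE 0.09, 95% interval 0.01 to 0.48, limma adjusted p = 0.261). It was 0.12 without 1,5-AG replicate 1 and 0.37 without 1,5-AG replicate 2. In the annotation 127 bases of its exons overlap those of Mcmdc2 on the opposite strand, and whether the counting used strand is not stated in the labels. Mcmdc2 itself was listed at 0 to 0.0557 FPKM.

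Zfas1, which lies head to head with Znfx1, was slightly higher with 1,5-AG. Zfas1 (ENSMUSG00000074578, chr2:167062934-167065862) had 13.8 and 14.5 FPKM in control and 16.7 and 15.4 FPKM with 1,5-AG. The 4 values kept the groups apart by less than the gap within the 1,5-AG group. The log2 difference was 0.17 (SE 0.06, 95% interval 0.02 to 0.32, limma adjusted p = 0.23). The value of 1 fragment gave whole numbers for Zfas1 with an exon length of 1901 bases, not the 2929 of GENCODE M21, so the gene model behind its FPKM was another one. With that length the control libraries held 399 and 447 fragments of Zfas1, those with 1,5-AG 464 and 443.

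Snhg1 and Gas5, the hosts with the most snoRNA loci, differed least among the hosts without an ACA end. Snhg1 (ENSMUSG00000108414, chr19:8723475-8726443) had 13.3 and 12.7 FPKM in control and 14.2 and 13.6 FPKM with 1,5-AG. The groups just failed to touch, and the log2 difference of 0.09 (SE 0.05, 95% interval -0.04 to 0.22, limma adjusted p = 0.432) did not pass. Gas5 (ENSMUSG00000053332, chr1:161034422-161038539), first known as a transcript of growth-arrested cells, had 20.7 and 22.5 FPKM in control and 20.3 and 21.5 FPKM with 1,5-AG. The groups overlapped, with the control libraries further apart than the group means. Gas5 was among the members measured most precisely, with 1117 to 1374 fragments and a counting error of 2.7% to 2.99%. Its log2 difference was -0.05 (SE 0.06, limma adjusted p = 0.731), and the 95% interval of -0.20 to 0.10 covers ratios from 0.871 to 1.07 on the FPKM + 1 scale. Without control replicate 2 the difference of Gas5 was 0.01.

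None of the 4 measured hosts with an ACA end, the scaRNA host and the mixed host Snhg12 included, separated by group. Snhg8 (ENSMUSG00000104960, chr3:123507552-123508404) had 20.9 and 18.5 FPKM in control and 20.9 and 19.8 FPKM with 1,5-AG. The lower control library lay below both 1,5-AG libraries, and the difference of 0.05 (SE 0.07, 95% interval -0.13 to 0.23) became -0.04 without it. Snhg15 (ENSMUSG00000085156, chr11:6525591-6528760) had 13.2 and 14.1 FPKM in control and 15.3 and 13.9 FPKM with 1,5-AG. One 1,5-AG library was above both controls and the other between them, and the difference was 0.09 (SE 0.07, 95% interval -0.08 to 0.26). Snhg12 (ENSMUSG00000086290, chr4:132308623-132311024) had 6.67 and 6.05 FPKM in control and 6.52 and 5.95 FPKM with 1,5-AG. Its groups all but coincided, at a difference of -0.02 (SE 0.08, 95% interval -0.22 to 0.17) that was 0.04 without control replicate 1 and 0.03 without 1,5-AG replicate 2. Snhg20 (ENSMUSG00000086859, chr11:117076008-117078955) had 13.6 and 13.1 FPKM in control and 15 and 12.2 FPKM with 1,5-AG. The 1,5-AG libraries bracketed the controls, 21% of their mean apart, and the difference of 0.02 had the widest interval of the 9, -0.24 to 0.28. The difference of Snhg20 was -0.01 without control replicate 2 and -0.12 without 1,5-AG replicate 1. The limma adjusted p-values of these 4 hosts ran from 0.544 for Snhg15 to 0.944 for Snhg20.

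**Figure D3:**
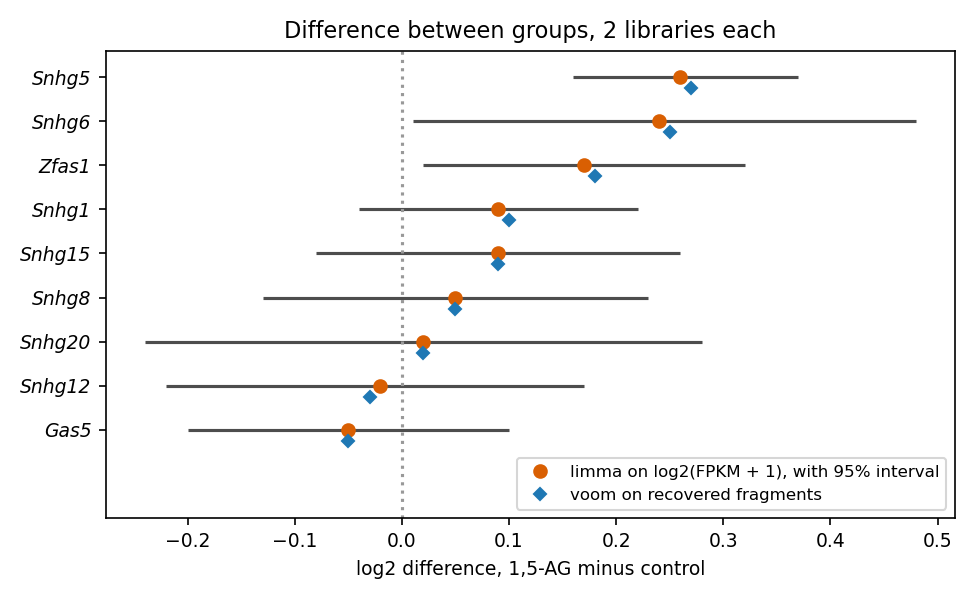
Log2 difference, 1,5-AG minus control, for each host gene. Orange points are limma estimates on log2(FPKM + 1) with their 95% intervals, and blue diamonds are voom estimates from recovered fragments. The limma interval of Snhg5 (0.16 to 0.37) lies furthest from 0 and those of Snhg6 and Zfas1 begin at 0.01 and 0.02, while the other 6 span 0. Voom intervals are not drawn, and the voom SE of Snhg5, Snhg6 and Zfas1 (0.07, 0.11 and 0.09) were larger than those of limma.

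Both motifs of the start site were present in hosts with different values. Gas5, Snhg5, Snhg8 and Snhg12, whose windows hold TATA and a pyrimidine run, had log2 differences of -0.05, 0.26, 0.05 and -0.02. Zfas1, Snhg15 and Snhg20, whose windows hold neither, had 0.17, 0.09 and 0.02. The ranges of these groups of hosts overlapped, and no test between them was made.

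Most members also shared the order of the 1,5-AG libraries. In 8 of 9 hosts, all but Gas5, 1,5-AG replicate 1 was above replicate 2, against 48.2% of tested genes. In Snhg5 and Snhg8 that gap (0.616% and 5.66% of the mean) was below the counting error of a single library, so the order alone says little there. A gap between libraries carries the counting error of both, so gaps not far above that of 1 library say little too. Such gaps were those of Snhg1 (4.64%, error 4.02% to 4.09% per library) and Snhg12 (9.18%, error 6.42% to 6.8%). Between the controls replicate 1 was above replicate 2 in 5 of 9. Summed over the 9 hosts, the controls held 141 FPKM each and the 1,5-AG libraries 158 and 148 FPKM. The median difference of the 9 was 0.03 without 1,5-AG replicate 1 and 0.15 without replicate 2, and the source of the gap between these libraries was not tested.

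**Figure D4:**
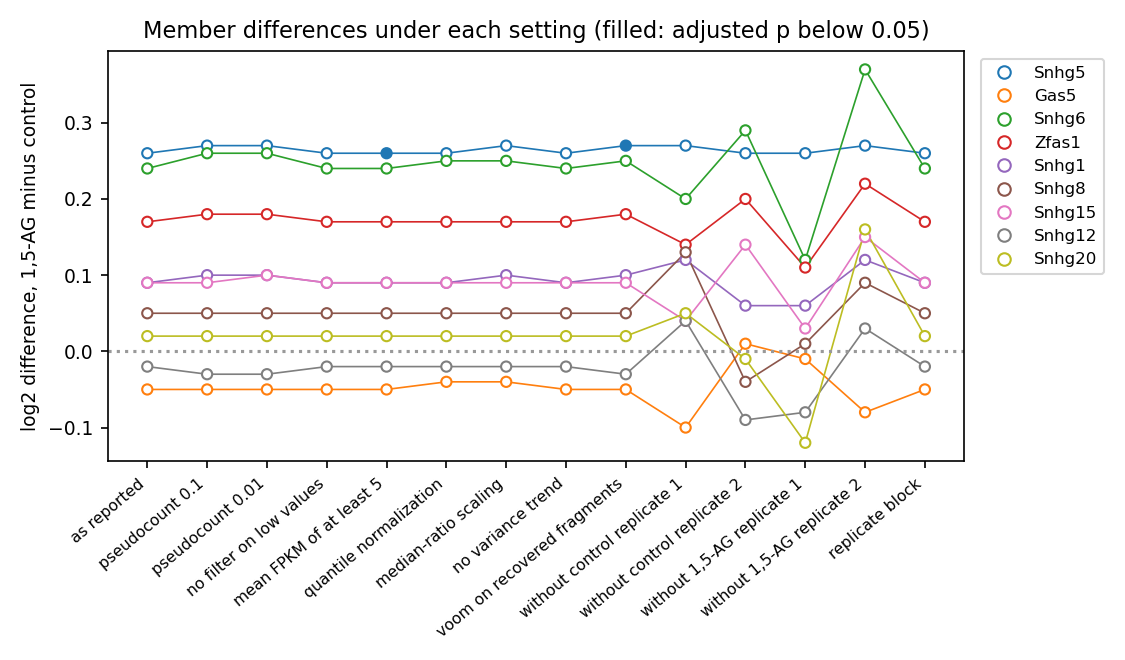
Log2 difference of each host gene under the reported fit and 13 alternatives. Each colour is 1 gene, lines only join its points, and filled points have an adjusted p below 0.05. Snhg5 stays between 0.26 and 0.27 and is filled under 2 of them, with voom and with the filter at 5 FPKM, while Snhg6 moves between 0.12 and 0.37 when a library is left out.

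By level the hosts formed a shallow order. Mean FPKM over the 4 libraries ran from Snhg5 (24.8) through Gas5 (21.3), Snhg8 (20), Snhg6 (18.3), Zfas1 (15.1), Snhg15 (14.1), Snhg20 and Snhg1 (13.5 each) to Snhg12 (6.3). Each pair of neighbours in this order overlapped in range over the 4 libraries, except that Snhg12 lay wholly below Snhg1. FPKM divides by the length of all annotated exons, and models with retained introns stretch that length unevenly. The merged exons cover 100% of the span of Snhg1, Snhg8 and Snhg12 and 91.3% of that of Gas5, where 20 of 25 annotated transcripts are of the retained-intron type. They cover 53.1% of Snhg6 and 42.9% of Snhg15. Levels per length of the spliced RNAs are therefore not comparable between hosts as closely as the figures imply, whereas a comparison of 1 gene between groups keeps the same length. Where merged exons cover introns, a value also pools reads of unspliced or intron-retaining RNA with those of spliced RNA. A change in the spliced RNA alone cannot be read from such values.

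The snoRNAs themselves were hardly visible. Libraries were made with a kit for polyadenylated RNA, and snoRNAs are short and lack that tail. Of 34 annotated snoRNA and scaRNA models inside the hosts, 2 were read from the table, and 32 of the 34 overlap annotated host exons. What part the kit or this overlap had in the low visibility was not tested. Snord87, inside Snhg6 and outside its exons, had 0 and 1 fragments in the control libraries, and 0 and 2 in those with 1,5-AG. These counts lie at or under the floor of 3 fragments, so no ratio is given. Gm23201, a C and D box snoRNA model inside Zfas1 (chr2:167064998-167065086), had 36 and 33 fragments in the control libraries, and 30 and 35 in those with 1,5-AG. Its FPKM of 26.7 and 22.8 against 23.1 and 26.0 overlapped. In GENCODE M21 it lies within exons of Zfas1, where reads of the host cannot be told apart from its own. The gene model behind the Zfas1 values was another one, so whether that overlap holds for these counts is not known.

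The protein-coding genes that start nearest to the hosts gave values in both directions. Slc3a2, the heavy chain of amino acid transporters, starts 106 bases from Snhg1 on the opposite strand and had 50.8 and 48.1 FPKM in control and 56.9 and 53.2 with 1,5-AG (log2 difference 0.15, limma adjusted p = 0.23). Rcc1, the nucleotide exchange factor of Ran, starts 81 bases from Snhg3 on the same strand and shares 135 of the 986 exon bases of Snhg3. Rcc1 had 32.2 and 29.9 FPKM in control and 35.1 and 34.2 with 1,5-AG (0.16, limma adjusted p = 0.214). Znfx1 starts 81 bases from Zfas1 on the opposite strand, and their exons overlap over 82 bases. Znfx1 had 15.7 and 16.4 FPKM in control and 14.1 and 14.5 with 1,5-AG (-0.15, limma adjusted p = 0.211), so the pair had differences of opposite sign, neither of which passed. Zbtb37 starts 427 bases from Gas5 and had a difference of 0.01.

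The other hosts had more distant neighbours, from 5238 bases for Rab42 beside Snhg12 to 61491 for Prss12 beside Snhg8. Myo1g, a myosin gene 7795 bases from Snhg15, had 10.3 and 11.2 FPKM in control and 8.01 and 7.76 with 1,5-AG (-0.40, limma adjusted p = 0.0594; voom adjusted p = 0.000149). Sec14l1 beside Snhg20 had -0.18 and Zfp949 beside Snhg5 -0.29, with limma adjusted p of 0.176 and 0.348 and voom adjusted p of 0.0293 and 0.151. Prss12 and Rab42 stayed at or under 0.174 FPKM, and Tcf24 beside Snhg6 was not analysed here.

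The related lists are read against shares over all tested genes. These were 1.46% called by limma (0.809% higher, 0.647% lower) and 49.1% with a log2 difference above 0. They were 18.2% at an unadjusted p of 0.05 and 8.29% called by voom (3.65% higher, 4.64% lower). Groups stood apart in the higher direction in 24.2% and in the lower in 25.4%. Other noncoding snoRNA hosts did not pass either. Of 10 more such genes listed, 5 had a row and 3 a mean of at least 1 FPKM, of which 0 passed by limma, 0 at an unadjusted p of 0.05 and 0 by voom. Snhg17 had 8.53 and 9.48 FPKM in control and 8.66 and 8.91 with 1,5-AG (-0.03). Dancr had 1.80 and 1.42 against 2.07 and 1.69 FPKM (0.14), and Snhg10 4.61 and 2.68 against 2.85 and 2.75 FPKM (-0.26). Snhg10 rested on 22 to 37 fragments per library. Snhg14 and Snhg18 were below the filter, at 0.055 and 0.409 FPKM.

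Genes that code for the machinery of snoRNAs had the same median difference as the noncoding hosts. Of 19 snoRNP proteins and assembly factors, 19 had a difference above 0 and a median of 0.09, and in 13 the groups stood apart in the higher direction, in 0 in the lower, against 24.2% and 25.4% of tested genes. By limma 0 passed, at an unadjusted p of 0.05 there were 5 (all genes 18.2%), and by voom 1 (all genes 8.29%). The gene called by voom was Gar1: this core protein gene of ACA snoRNPs had 45.7 and 42.0 FPKM in control and 53.7 and 52.3 with 1,5-AG (0.27, limma adjusted p = 0.0932). Znhit3, an assembly factor of C and D snoRNPs, had 7.07 and 6.89 against 9.06 and 8.02 FPKM (0.26, limma adjusted p = 0.168).

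Protein-coding snoRNA hosts and 5′TOP genes had small differences, more of them above 0 than below. Of 30 protein-coding hosts, 23 were above 0 with a median of 0.05, and 0 passed by limma. At an unadjusted p of 0.05 there were 7, 6 of them higher, and by voom 4, all higher, against 18.2% and 8.29% of tested genes. In 16 of the 30 the groups stood apart in the higher direction and in 3 in the lower, where all genes gave 24.2% and 25.4%. The smallest p-value was that of Hspa9, a mitochondrial chaperone, with 234 and 246 FPKM in control and 271 and 272 with 1,5-AG (0.18, limma adjusted p = 0.105). Of 80 ribosomal protein genes tested, 58 were above 0, the median was 0.03 and 0 passed by limma. At an unadjusted p of 0.05 there were 11 of 80 and by voom 1, both smaller shares than the 18.2% and 8.29% of all tested genes in either direction. Of the 11, 9 were higher, where 9.15% of all tested genes passed with a higher value. The groups stood apart in the higher direction in 35 of the 80 and in the lower in 5. Rps21 led this list at 0.21. Of 20 translation factor and related 5′TOP genes, 14 were above 0 with a median of 0.04, and 0 passed by limma (3 at an unadjusted p of 0.05 and 2 by voom, all higher). Their groups stood apart in the higher direction in 9 and in the lower in 1. The factor gene Eif2s3x had 0.14 and Npm1, a nucleolar chaperone, 0.11. Some genes stand in more than 1 of these lists.

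The decay machinery and its protein-coding targets were split. Of 23 nonsense-mediated decay factors, 14 were above 0 with a median of 0.01, and 0 passed by limma. At an unadjusted p of 0.05 there were 6, 5 of them higher, and voom called 2 higher and 1 lower, against 18.2% and 8.29% of tested genes. Groups stood apart in the higher direction in 9 and in the lower in 4. Etf1, the release factor that reads stop codons, had 94.2 and 99.3 FPKM in control and 110 and 110 with 1,5-AG (0.18, limma adjusted p = 0.114), and Magoh of the exon junction complex had 0.15. Of 17 tested protein-coding decay targets 10 were above 0 with a median of 0.02. At an unadjusted p of 0.05 there were 3, 1 of them higher, voom called 1 higher and 2 lower, and groups stood apart higher in 7 and lower in 3. By limma 1 fell: the stress transcription factor gene Atf3, from 13.4 and 13.9 to 8.93 and 9.34 FPKM (-0.53, limma adjusted p = 0.0274). Among 24 genes of translation control 13 were above 0 with a median of 0.01. At an unadjusted p of 0.05 there were 7, 4 of them higher, voom called 3 higher and 0 lower, and groups stood apart higher in 10 and lower in 8. By limma 1 rose: Ddit4, an inhibitor of mTORC1, from 3.64 and 3.41 to 5.54 and 6.15 FPKM (0.60, limma adjusted p = 0.0454). The calls of Atf3 and Ddit4 were the only ones among these lists by limma in the reported fit, and both ended when any 1 library was left out.

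**Figure D5:**
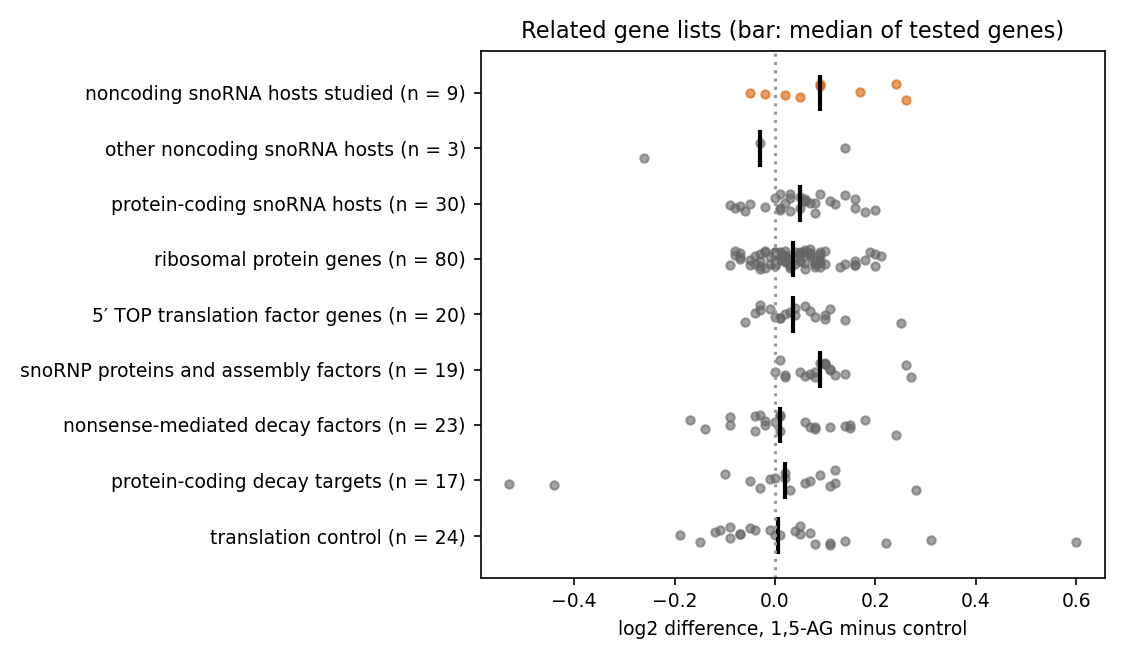
Log2 difference, 1,5-AG minus control, of each tested gene in the host genes (orange) and in 8 related lists (grey). Each point is 1 gene and bars mark the medians. The medians of the noncoding hosts and of the snoRNP proteins are both 0.09, and the single points furthest from 0 are Atf3 at -0.53 and Ddit4 at 0.60.

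The genes whose 4 values, as deviations of log2(FPKM + 1) from their own mean, lay nearest to the median deviations of the 9 hosts were Nop14, Capzb, Mogs, Lrrc47 and Mrps27. Their Euclidean distances over the 4 libraries ran from 0.0120 to 0.0214. Nop14, a ribosome biogenesis factor and the closest, had 37.4 and 36.9 FPKM in control and 41.1 and 38.2 with 1,5-AG. With 4 libraries and many genes, such likeness is a description only.

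The libraries held 14616556 to 16228673 fragments assigned to genes. By limma 162 genes passed (90 higher, 72 lower), and 2 to 10 when 1 library was left out. The macrophage markers Cd68, Csf1r and Adgre1 were expressed in all 4 libraries. Cd68 had 500 and 498 FPKM in control and 472 and 479 with 1,5-AG, Csf1r 258 and 258 against 237 and 240, and Adgre1 20.1 and 23.4 against 16.9 and 17.5. All 3 were lower in both 1,5-AG libraries than in both controls. None of the 3 passed by limma, while voom called Csf1r and Adgre1 lower (adjusted p = 0.0215 and 0.00596). Of 8 macrophage markers listed, 7 were tested, and their levels went down to 6.87 to 7.67 FPKM for Itgam. Of these 7, 1 was called lower by limma (Lyz2) and 3 by voom, against 0.647% and 4.64% of tested genes, and 0 were called higher by either. In 4 of the 7 both 1,5-AG libraries lay below both controls, against 25.4% of tested genes. Of the 7 log2 differences 2 were above 0 and 5 below. The summed level of the 7 was 5330 to 5480 FPKM in control and 3860 to 3960 FPKM with 1,5-AG. Most of that sum, and of its fall, was Lyz2 alone, with 4550 and 4420 FPKM in control and 3100 and 3000 with 1,5-AG. What part the lower marker values had in the values of the hosts was not tested. Markers of other cells were at or near 0: those of epithelium summed to at most 0.0289 FPKM, fibroblast markers to 0.0254, B cell markers to 0.213, erythroid markers to 0.423 and neutrophil markers to 0.517. Those of T and NK cells summed to between 1.18 and 1.37 FPKM in all 4 libraries, nearly all of it Lck. Within this line, fewer cells that express a gene and less of its RNA per cell cannot be told apart in such bulk samples.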

How the data were processed

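RNA sequencing of RAW264.7 cells gave 4 libraries, 2 control and 2 with 1,5-AG, grouped by the sample titles. The values the authors deposited are FPKM, 1 column per library; build mm10 and the tools HTSeq, Cufflinks, HISAT2 and Trimmomatic are named, per the submitters' processing notes. Their versions, roles, strand setting and annotation are not given in the sources used. Per the labels' protocols, a stranded kit for polyadenylated RNA was used.

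Of 21523 identifiers, 21508 matched GENCODE release M21 (same build), the source of symbols, types and coordinates. FPKM times merged exon length gave whole multiples of 1 fragment (tolerance 0.02) in all libraries for 99.37% of genes, which recovers depth. Limma 3.58.1 in R 4.3.3 was fitted to log2(FPKM + 1) with a term for group and a trended prior variance, over genes averaging at least 1 FPKM, keeping the highest row of a shared symbol. Tests were two-sided and adjusted by Benjamini-Hochberg at 0.05. The fit was also run on simulated fragments, whose spread was set and not estimated from these libraries. That run therefore does not show how often differences as small as those of the hosts would be found here. A permutation test of 2 against 2 libraries cannot go below p = 0.333, so evidence rests on limma's pooled variance. Voom used recovered fragments of 11057 genes. Intervals of differences are 95% limma intervals. Counting errors cover counting only, since no molecular identifiers separate PCR copies. Reads shared by near-identical copies or overlapping genes leave their values uncertain.

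Members, lists and tests were chosen with earlier results of these data known. Named genes were all members, other noncoding hosts with a mean of at least 1 FPKM, up to 4 called genes per list or otherwise the 2 with the smallest p, the nearest-starting protein-coding gene of each member, the 5 most alike genes, and Cd68, Csf1r and Adgre1. One gene that this rule names is not reported here. Itgam, Lck, Lyz2, Mcmdc2, Snhg14 and Snhg18 were named after their values were seen.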

Additional observations from a re-analysis of the deposited data

How the results depend on the processing

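None of the 13 alternatives turned the sign of Snhg1, Snhg5, Snhg6, Snhg15 or Zfas1. Hosts past the threshold numbered 0 as reported, and 1, Snhg5, with voom or among genes averaging at least 5 FPKM. Its log2 difference stayed at 0.26 to 0.27 and its adjusted p ran from 0.0237 to 0.241. Of 117 host values under alternatives 109 kept direction and side of the threshold, 2 gained it and 6 changed sign, all 6 with 1 library left out. These were Gas5 at 0.01, Snhg20 at -0.01 and Snhg8 at -0.04 without control replicate 2, Snhg12 at 0.04 without control replicate 1 and at 0.03 without 1,5-AG replicate 2, and Snhg20 at -0.12 without 1,5-AG replicate 1. With 1 library left out, Gas5 ranged from -0.10 to 0.01, Snhg8 from -0.04 to 0.13, Snhg12 from -0.09 to 0.04 and Snhg20 from -0.12 to 0.16. The median of the hosts ranged from 0.03 to 0.15. The 162 genes past the threshold became 0 with no filter, 360 at a mean of at least 5 FPKM, 5 without the variance trend, 917 with voom and 2 to 10 with 1 library left out. The 2 called genes of the other lists became 0 without a filter, 4 at a mean of at least 5 FPKM, 0 without the variance trend, 17 with voom and 0 to 0 with 1 library left out. With the replicate block 310 genes, 4 genes of the other lists and 0 hosts passed, Snhg5 had an adjusted p of 0.0608 and the median of the hosts was 0.09. Same-numbered libraries did not deviate together (correlation 0.0124), and what the numbers mark is not stated. The cause of these shifts was not tested, apart from the fewer genes or libraries that some settings impose. Counting error of 2.7% to 6.8% per library limits what can be seen in the hosts.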
